A study of Mus musculus with 6 samples.

Results

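Cd28, the gene of a costimulatory receptor known from T cells, was examined beside 9 other genes in basal keratinocytes of embryonic mouse skin. The 9 were its chromosomal neighbours and family members Ctla4 and Icos, the ligand genes Cd80, Cd86 and Icosl, the T cell receptor component genes Cd3e, Cd3g and Trdc, and the leukocyte gene Ptprc. These 10 genes, of 55536 listed in the count table, were found by matching Ensembl identifiers to gene symbols. Cd28 was chosen by its counts in these same 6 libraries, which were higher in the knockout, so its values are given as a description with no test. The others were chosen for their relation to Cd28, and the question was whether the higher Cd28 counts came with T cell transcripts.

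Bulk RNA-seq was performed on basal cells sorted by FACS from the dorsal skin of E16.5 embryos as Epcam+ Cd49f+ cells, with 3 control (Ctrl) and 3 triple knockout (TKO) libraries. TKO embryos were Suv39h1 f/f, Suv39h2-/-, Setdb1 f/f and K14CreERT2+, so that tamoxifen removed the floxed H3K9 methyltransferase genes in cells with an active K14 promoter. Ctrl embryos carried the same alleles without the Cre, and both groups were exposed to tamoxifen. Loss of Suv39h2 was therefore shared by both groups. Cre targeting in this line was incomplete, so a TKO library could mix recombined and unrecombined cells, and a whole-library count is an average over both. Ctrl replicate 1 and TKO replicate 2 were labelled female and the other 4 embryos male. Total counts per library ranged from 102159175 to 136515436. Values are CPM, counts scaled to the library size after TMM normalization, and the floor was set at 3 counts, which is 0.0232 to 0.0303 CPM in these libraries. The floor covers counting error only.

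The targeted genes were read first as a check of the labels. Setdb1, an H3K9 methyltransferase gene, was at 125.5, 117.9 and 121.1 CPM in Ctrl and at 95.3, 62.3 and 74.9 CPM in TKO. All TKO libraries were below all Ctrl libraries, with a log2 fold change of -0.65 (SE 0.161; edgeR quasi-likelihood test with Benjamini-Hochberg adjustment, adjusted p = 0.286, and 0.0449 with DESeq2, where the fold was under the threshold for a call). Suv39h1 had a mean of 83.7 ± 5.1 CPM in Ctrl libraries, against 78 ± 10.5 CPM in TKO libraries (SD, n = 3 each), and the groups overlapped (log2 fold change -0.10, edgeR adjusted p = 1). Suv39h2, deleted in both groups, was at 16.2 ± 0.784 and 17.5 ± 1.46 CPM (log2 fold change 0.11, edgeR adjusted p = 1). Counts over a whole gene include reads from exons outside the deleted part, so the levels of these genes do not measure the share of recombined cells. The labelled cell type was present in every library. Krt5, a keratin gene of basal keratinocytes, was at 12318.0, 12051.1 and 8178.5 CPM in Ctrl and at 6993.7, 8037.3 and 9021.5 CPM in TKO, with overlapping groups.

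On T cells, CD28 binds CD80 and CD86 on antigen-presenting cells and adds a second signal to that of the T cell receptor. CTLA-4 binds the same ligands and restrains the response, whereas ICOS binds ICOS ligand and supports activated T cells. In the skin of mice, T cells with γδ receptors settle in the epidermis around birth as dendritic epidermal T cells, next to Langerhans cells.

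Cd28 (ENSMUSG00000026012, chr1:60755959-60812518, plus strand, GRCm39) had 9, 40 and 0 counts in Ctrl libraries 1, 2 and 3. It had 291, 508 and 262 counts in TKO libraries 1, 2 and 3. On the scaled level these were 0.0909, 0.31 and 0 CPM in Ctrl and 2.47, 4.6 and 2.15 CPM in TKO. The groups did not overlap, and Ctrl replicate 3 had no Cd28 read at all. Within the groups the highest libraries were Ctrl replicate 2 and TKO replicate 2. The Ctrl mean was 0.133 ± 0.159 CPM and the TKO mean 3.08 ± 1.33 CPM (SD, n = 3 each), a ratio of 23. The fitted log2 fold change was 4.48 (SE 0.947), or 5.01 with the replicate number as a block. It was 6.08 without Ctrl replicate 2, which holds 40 of the 49 Ctrl counts, and 4.07 without TKO replicate 2.

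At the threshold used throughout (edgeR adjusted p under 0.05 and absolute log2 fold change above 1), 27 of 20622 tested genes (0.131%) were called higher in TKO and 0 were called lower, with 837 and 416 at an unadjusted p under 0.05. A fit blocked on the replicate number called 44 genes (0.213%) higher and 1 (0.00485%) lower, and DESeq2 called 193 higher and 21 lower (1.04% in all). Cd28 was chosen for its rise, so whether it is among the genes called is not given. Cd28 passed the low-count filter only through the TKO libraries. No annotated gene lies on the opposite strand across Cd28.

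**Figure D1:**
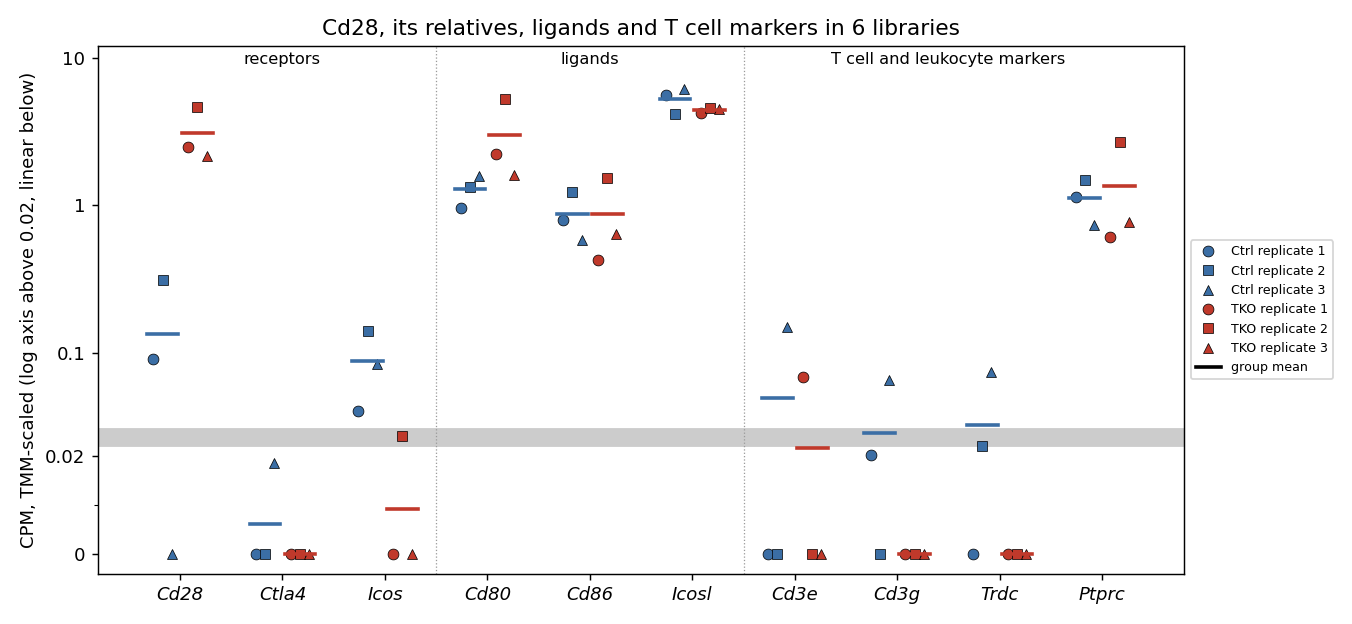
Scaled level of each of the 10 genes in each library, in CPM on an axis that is logarithmic above 0.02 and linear below it, with Ctrl in blue, TKO in red, the replicate number as the symbol and horizontal lines at the group means. The grey band spans the level of 3 counts in the 6 libraries; Cd28 lies above the band in all 3 TKO libraries, while Ctla4, Cd3g and Trdc are at 0 in all 3.

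The receptor genes next to Cd28 on chromosome 1 had almost no reads, and neither had more in TKO. Ctla4 (ENSMUSG00000026011, chr1:60926159-60954991, plus strand) had 0, 0 and 2 counts in Ctrl and 0 counts in each TKO library. Icos (ENSMUSG00000026009, chr1:61017086-61039479, plus strand) had 4, 18 and 9 counts in Ctrl and 0, 3 and 0 in TKO. The Icos groups did not overlap and lay in the opposite order to those of Cd28, with a TKO level at least 3.4-fold lower when each TKO library was set at the 3-count floor. With 31 counts in Ctrl and 3 in TKO in all, Icos did not pass the low-count filter and was not tested. Of the further family genes, Pdcd1, the gene of the inhibitory receptor PD-1, had 0 counts in all 6 libraries. Btla, the gene of another inhibitory receptor, had 0, 0 and 9 counts in Ctrl and 8, 4 and 0 in TKO. Of the 5 listed receptor genes only Cd28 reached the filter, through its TKO libraries. Nothing is read from this, since Cd28 was chosen for its rise.

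Of the 3 ligand genes, Cd80 had groups that did not overlap, with TKO higher, and Cd86 and Icosl overlapped between the groups. None of them was called, beside 0.131% of all tested genes called in either direction. Cd80 (ENSMUSG00000075122, chr16:38275923-38316697, plus strand) was at 0.959, 1.33 and 1.58 CPM in Ctrl and at 2.23, 5.2 and 1.59 CPM in TKO. TKO replicate 3 was barely above Ctrl replicate 3, and TKO replicate 2 was the highest library, as for Cd28. The means were 1.29 ± 0.311 and 3 ± 1.93 CPM (SD, n = 3 each), with a log2 fold change of 1.22 (SE 0.47; edgeR adjusted p = 0.733). Groups that did not overlap, with TKO higher, were found in 6.35% of all tested genes, and an unadjusted p under 0.05 with TKO higher in 4.06%. Without TKO replicate 2 the log2 fold change of Cd80 was 0.56. Part of Cd80 lies opposite Timmdc1, a gene of mitochondrial complex I assembly with a log2 fold change of -0.12 (edgeR adjusted p = 1). The strand setting of the counting is not given in the sources used here, so reads from opposite strands may not be separable.

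Cd86 (ENSMUSG00000022901, chr16:36424044-36486443, minus strand) was at 0.798, 1.23 and 0.584 CPM in Ctrl and at 0.425, 1.53 and 0.641 CPM in TKO. The means of 0.871 ± 0.329 and 0.866 ± 0.586 CPM differed by less than the spread within either group (log2 fold change -0.01, SE 0.548, edgeR adjusted p = 1). Icosl (ENSMUSG00000000732, chr10:77905136-77919747, plus strand) was at 5.54, 4.12 and 6.08 CPM in Ctrl and at 4.22, 4.55 and 4.46 CPM in TKO. Its groups overlapped, with means of 5.25 ± 1.01 and 4.41 ± 0.168 CPM (log2 fold change -0.25, SE 0.25, edgeR adjusted p = 1). Over the 9 listed B7 family ligand genes, 7 were tested, 0 were called and the median log2 fold change was 0.22, beside 0.01 over all tested genes. Cd276, the gene of B7-H3 and the most abundant of them, had a log2 fold change of 0.30 (SE 0.185, edgeR adjusted p = 1). The values were 0.84 (SE 0.51) for Vsir, which encodes the checkpoint protein VISTA, and 0.22 (SE 0.406) for Cd274, which encodes PD-L1, each with an edgeR adjusted p of 1. The 9 genes summed to 22, 21.8 and 26.6 CPM in Ctrl and to 23.5, 33.3 and 28.9 CPM in TKO. Cd276 and this sum overlapped between the groups. Both were higher in TKO in every pair of libraries with the same replicate number. The share of all tested genes with that order was not counted, so nothing is read from it.

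Cd3e, Cd3g and Trdc, genes of the T cell receptor complex, were at or near 0 in the TKO libraries. Cd3e (ENSMUSG00000032093, chr9:44910037-44920925, minus strand), which encodes the epsilon chain of the CD3 complex, had 0, 0 and 16 counts in Ctrl and 8, 0 and 0 in TKO. Cd3g (ENSMUSG00000002033, chr9:44880870-44891735, minus strand), the gene of the gamma chain, had 2, 0 and 7 counts in Ctrl and none in TKO. Trdc (ENSMUSG00000104876, chr14:54380308-54386325, plus strand), the constant region of the delta chain carried by dendritic epidermal T cells, had 0, 3 and 8 counts in Ctrl and none in TKO. None of the 3 passed the low-count filter. The most counts of each were in Ctrl replicate 3, the library with no Cd28 read. Cd3e and Trdc overlap annotated genes on the other strand.

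Set side by side within a library, Cd28 and the CD3 genes did not follow each other. Cd3d, Cd3e and Cd3g together had 4, 0 and 35 counts in Ctrl and 8, 0 and 0 in TKO. TKO replicates 2 and 3 thus had 508 and 262 Cd28 counts with no read on any of the 3 CD3 genes, and Ctrl replicate 2 had 40 Cd28 counts with none. A wider sum of 11 genes added Cd247, the CD3 zeta chain gene, and the constant chains Trac, Trbc1, Trbc2, Trdc, Trgc1, Trgc2 and Trgc4. It came to 228, 370 and 234 counts in Ctrl and to 178, 151 and 323 in TKO, with overlapping groups. Most of these counts fell on 1 gene, the beta constant chain Trbc2, with 190, 345 and 174 counts in Ctrl and 160, 124 and 323 in TKO. In TKO replicate 3 all reads of the 11 genes were on Trbc2, which had more counts there than Cd28, and the other 10 genes were at 0. Without Trbc2, a split made after its values were seen, the sum was 38, 25 and 60 counts in Ctrl and 18, 27 and 0 in TKO. Scaled to library size Trbc2 was at 1.92, 2.67 and 1.61 CPM in Ctrl and 1.36, 1.12 and 2.66 CPM in TKO. Its groups overlapped (log2 fold change -0.27, edgeR adjusted p = 1).

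**Figure D2:**
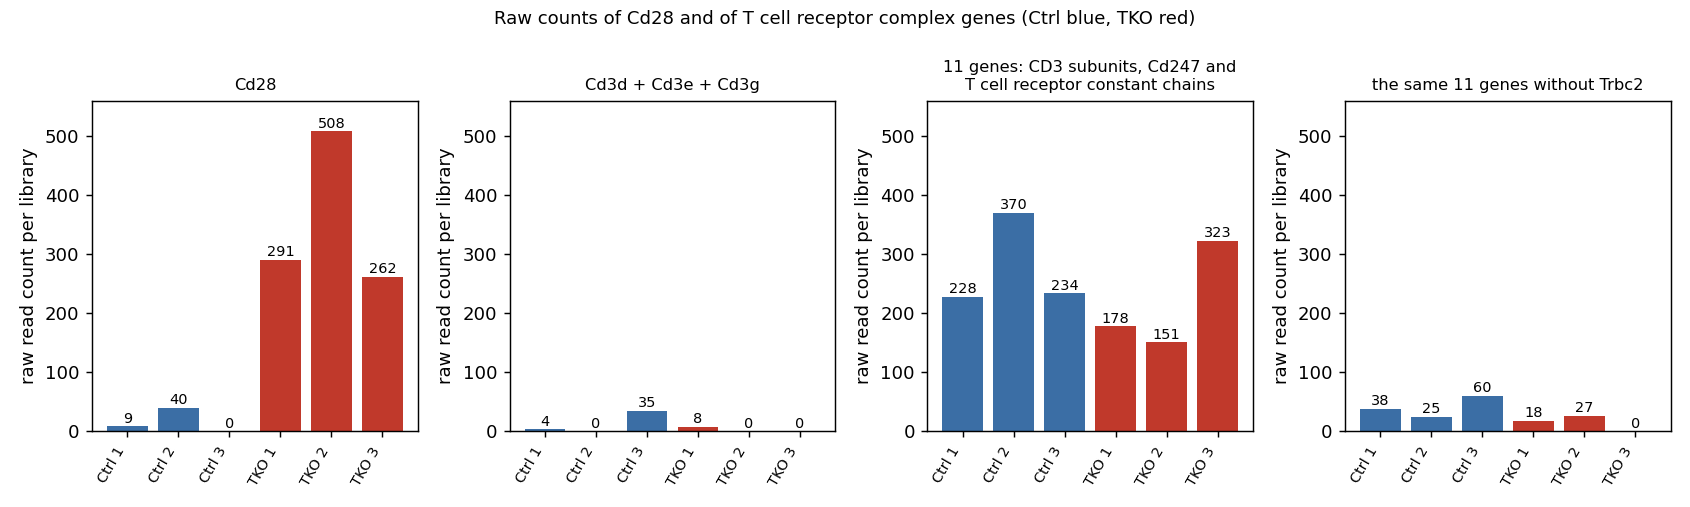
Raw counts per library on linear axes for Cd28, for the sum of Cd3d, Cd3e and Cd3g, for the sum of 11 CD3 and T cell receptor constant chain genes, and for the same sum without Trbc2, with Ctrl in blue and TKO in red. Cd28 is at 291, 508 and 262 counts in TKO, while the sum of the 3 CD3 genes is 8, 0 and 0, that of the 11 genes 178, 151 and 323 and that without Trbc2 18, 27 and 0 in the same libraries.

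Over the full list of 23 T cell marker genes, 8 passed the filter, 0 were called and the median log2 fold change of those 8 was -0.35. Over all tested genes 0.131% were called in either direction, so nothing is read from 0 called in a short list. The same holds for the lists that follow. In single libraries 5, 11 and 5 of the 23 were at 0 in Ctrl and 12, 12 and 14 in TKO. In every TKO library 9 of the 23 were at 0, among them Cd3d, Cd3g, Trbc1, Trdc, Trgc1 and Cd8a, against 3 of 23 in every Ctrl library. More than 3 counts were found for 14, 9 and 18 of the 23 genes in Ctrl and for 8, 10 and 9 in TKO. The genes named had few reads in Ctrl too. The shares over all genes were not counted, so nothing is read from these tallies. The summed level was 15.1, 15.2 and 15.9 CPM in Ctrl and 9.78, 11.2 and 16.8 CPM in TKO, with means of 15.4 ± 0.434 and 12.6 ± 3.71 CPM (SD, n = 3 each) and a log2 ratio of -0.29. Most of that sum was Lck, a kinase gene of T cell receptor signalling, which had 9.53, 8.63 and 9.74 CPM in Ctrl and 6.96, 8.43 and 10.9 CPM in TKO. Lck overlapped between the groups (log2 fold change -0.09, edgeR adjusted p = 1). Cd5, a scavenger receptor family gene of T cells and some B cells, was lower in every TKO library, at 1.93, 2.81 and 2.66 CPM in Ctrl and 0.892, 0.652 and 1.68 CPM in TKO. Its log2 fold change was -1.20 (SE 0.422; edgeR adjusted p = 0.658). It was the only listed T cell gene with an unadjusted p under 0.05, beside 2.02% of all tested genes in that direction. In bulk libraries fewer cells of a type and less RNA per cell cannot be told apart.

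Of 9 dendritic epidermal T cell markers, 2 were tested and 0 called. Trgv5, the variable segment of their receptor, had 0 counts in all libraries. The summed level of this list was 2.29, 2.99 and 2 CPM in Ctrl and 0.935, 4.61 and 2.12 CPM in TKO. Most of it was Fcer1g, the Fc receptor gamma chain gene that myeloid and mast cells also express, with a log2 fold change of 0.19 (edgeR adjusted p = 1).

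Ptprc (ENSMUSG00000026395, chr1:137990599-138103446, minus strand), which encodes CD45 on all leukocytes, was at 1.13, 1.48 and 0.733 CPM in Ctrl and at 0.603, 2.69 and 0.773 CPM in TKO. The groups overlapped, and TKO replicates 1 and 2 were the lowest and the highest of the 6 libraries. The means were 1.11 ± 0.373 and 1.36 ± 1.16 CPM (SD, n = 3 each), with a log2 fold change of 0.28 (SE 0.586, edgeR adjusted p = 1) that was -0.70 without TKO replicate 2. In that library the leukocyte and macrophage lists were highest as well. The 12 pan-leukocyte markers, with Laptm5 as the most abundant gene, summed to 18.1, 36.1 and 15.3 CPM in Ctrl and to 8.66, 51.3 and 20 CPM in TKO. The 17 macrophage and Langerhans cell markers, with Mrc1, a mannose receptor gene of macrophages, as the most abundant, summed to 54.7, 119.6 and 36.8 CPM in Ctrl and to 20.9, 182.4 and 48.2 CPM in TKO. All 12 pan-leukocyte markers were tested with 0 called and a median log2 fold change of 0.16, and of the 17 macrophage markers 15 were tested with 0 called and a median of 0.11.

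Replicate 2 was thus the library with the highest Cd28 and the highest macrophage sum in each group. Across the groups the order differed: TKO replicate 1 had the lowest macrophage sum of all 6 libraries at 20.9 CPM and a Cd28 level of 2.47 CPM, and Ctrl replicate 2 had a sum of 119.6 CPM and a Cd28 level of 0.31 CPM. Cd80 and Cd86 are genes of antigen-presenting cells, and the part of the macrophage sums in the Cd80 level of TKO replicate 2 was not tested.

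**Figure D3:**
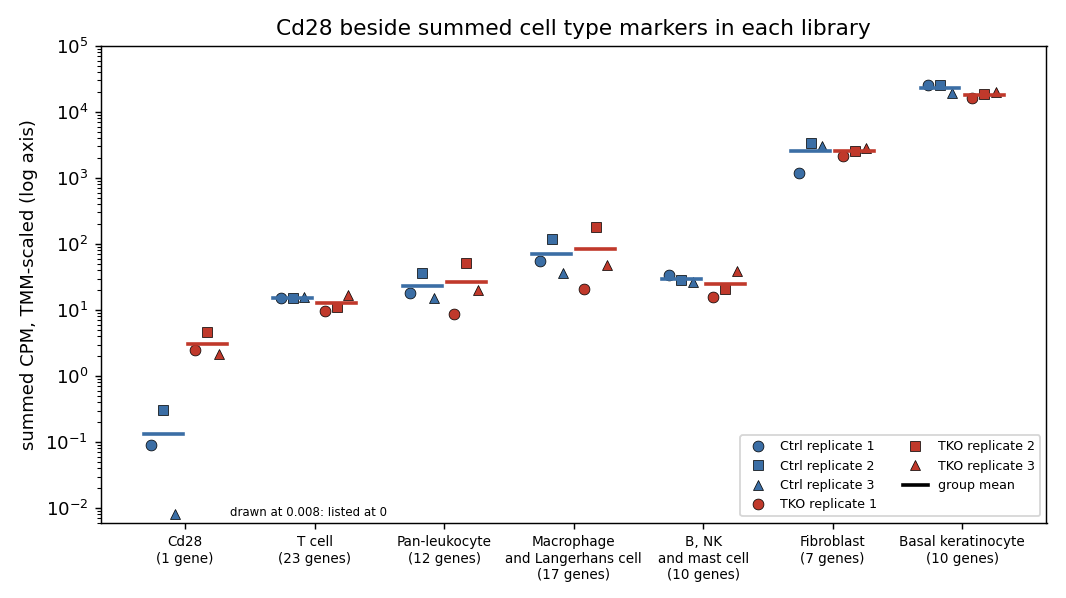
Scaled level of Cd28 beside the summed levels of marker lists in each library, in CPM on a logarithmic axis, with Ctrl in blue, TKO in red, the replicate number as the symbol and lines at the group means; a value of 0 is drawn at the lower edge. The T cell, leukocyte and macrophage sums overlap between the groups. Cd28 does not, but it was chosen for its rise in these libraries, so nothing is read from that contrast.

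Other cell types that the sort could hold were read in the same way. The lists of 10 B cell, NK cell and mast cell markers, 7 fibroblast, 7 melanocyte and 4 endothelial markers had 7, 7, 7 and 4 genes tested and 0 called. Their median log2 fold changes were -0.10, -0.06, 0.43 and 0.62. The B, NK and mast cell sum, led by the mast cell protease genes Cpa3 and Cma1, was 33.9, 28.8 and 26.8 CPM in Ctrl and 16, 20.6 and 38.7 CPM in TKO. The fibroblast sum, led by Col1a1, was 1206.9, 3378.7 and 3021.0 CPM in Ctrl and 2170.6, 2576.0 and 2819.4 CPM in TKO. The melanocyte sum, led by Mitf, was 7.37, 11.4 and 15.2 CPM in Ctrl and 12.9, 15.8 and 16.2 CPM in TKO, and the endothelial sum, led by Cdh5, was 25.3, 24.9 and 34.9 against 23.8, 61.2 and 47.5 CPM. All 4 sums overlapped between the groups. Between libraries with the same replicate number the melanocyte sum was higher in TKO in 3 of 3 pairs. The share of all tested genes with that order was not counted, so nothing is read from it. The part of the melanocyte sum in the Cd28 difference was not tested. Mlana, a melanosome gene named here because its groups did not overlap, was at 0.141, 0.0155 and 0.167 CPM in Ctrl libraries against 0.994, 1.53 and 0.304 CPM in TKO libraries. The Merkel cell list, in contrast, lay lower in TKO without overlap, at 8.76, 9.9 and 9.81 CPM against 3.53, 2.02 and 3.72 CPM, and 0 of 5 tested genes called. All 5 had an unadjusted p under 0.05, beside 2.02% of all tested genes in that direction, but Isl1 and Atoh1 passed the low-count filter through Ctrl, where they are high, so this count supports nothing. The most abundant gene of the list, Krt8, a keratin gene of simple epithelia and Merkel cells, had a log2 fold change of -1.92 (SE 0.353, edgeR adjusted p = 0.113). The summed Merkel cell level thus lay in the opposite order to Cd28, with no gene of the list called. Its part in the Cd28 difference was not tested. The 10 basal keratinocyte markers were all tested with 0 called and a median of -0.00. Among them Krt15, a keratin gene of basal cells, was lower in TKO without overlap, at 2715.6, 2579.0 and 2089.4 CPM in Ctrl libraries against 900.8, 792.0 and 1573.1 CPM in TKO libraries (log2 fold change -1.18, SE 0.256; adjusted p = 0.185 with edgeR and 0.00066 with DESeq2). Its part in the Cd28 difference was not tested.

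None of the genes of the signalling chain below the receptor was called, beside 0.131% of all tested genes. Of 15 listed CD28 signalling genes 13 were tested, and their median log2 fold change was 0.00. The summed level was 400.2, 498.3 and 436.1 CPM in Ctrl and 441.1, 393.6 and 445.7 CPM in TKO. Pik3r1, a regulatory subunit gene of PI3 kinase and the most abundant of them, had a log2 fold change of -0.07, and the adaptor gene Grb2 had one of -0.05. Both are expressed in most cell types. Bcl10, an adaptor of NF-κB activation, was lower in every TKO library with a log2 fold change of -0.31 (SE 0.144; edgeR adjusted p = 0.853). Fyn, a kinase gene of T cell receptor and CD28 signalling named here because of its values, had a log2 fold change of 0.68 (SE 0.308; edgeR adjusted p = 0.839). It was higher in TKO in 3 of 3 pairs with the same replicate number, from which nothing is read.

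Of 9 readouts of T cell activation 4 were tested and 0 called, with a median of 0.02. Ifng and Cd40lg were at 0 in all 6 libraries, and Il2, the growth factor gene that CD28 signalling raises in T cells, had 1, 0 and 4 counts in Ctrl and none in TKO. Bcl2l1, a survival gene that keratinocytes also express, was the most abundant with a log2 fold change of 0.06. Tnfrsf4, the gene of the OX40 receptor, had one of 0.23. Over all 14 lists, 96 distinct genes other than Cd28 were tested. None was called by edgeR, beside 0.131% of all tested genes. At an unadjusted p under 0.05, 4 were higher and 8 lower, beside 4.06% and 2.02% of all tested genes, and 5 of the 8 were Merkel cell markers. DESeq2 called 5, beside 1.04% of all tested genes, and 2 of these were Merkel cell markers. Nothing is read from these tallies, since H2-Eb1, Mlana, H2-Aa, Isl1 and Atoh1 among them passed the low-count filter through the group where they are high.

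Levels of different genes were compared per length, as CPM per kilobase of annotated exon (RPKM). In Ctrl the order was Icosl at 1.14 RPKM, Cd80 at 0.312, Cd86 at 0.226, Ptprc at 0.0594, Icos at 0.0256, Cd28 at 0.0218 and Cd3e at 0.0121. Cd3g, Trdc and Ctla4 followed below 0.01 RPKM. In TKO Cd28 had the rank 3 of the 10 genes at 0.502 RPKM, after Icosl at 0.955 and Cd80 at 0.727 and before Cd86 at 0.225 and Ptprc at 0.0722. Per length, all TKO libraries had more Cd28 than any of them had Ptprc, while in Ctrl the ranges of these genes overlapped. Neighbours in the Ctrl order had overlapping library ranges, except for the steps from Icosl to Cd80 and from Cd86 to Ptprc. In the TKO order each of the neighbours from Icosl to Ptprc overlapped.

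The genes around Cd28 were read to place the difference on the chromosome. Of 41 annotated genes that start within 500 kb of the Cd28 start, 26 were in the count table, 22 had a read and 7 besides Cd28 were tested. None of the 7 was called, beside 0.131% of all tested genes. All 7 had a positive log2 fold change, and in 3 of them (Abi2, 6030460B20Rik and 2310016D23Rik) TKO was higher without overlap, beside 6.35% of all tested genes. Nothing is read from these tallies, since 6030460B20Rik and 2310016D23Rik passed the low-count filter through TKO, and Icos, which was lower, did not pass it. Among the protein-coding genes upstream, Cyp20a1, a cytochrome P450 gene that starts 373.5 kb away, had 256, 545 and 349 counts in Ctrl and 469, 918 and 328 in TKO (log2 fold change 0.58, SE 0.412, edgeR adjusted p = 1). Abi2, a regulator of actin branching 307.3 kb away, was at 35.3, 46.9 and 43.3 CPM in Ctrl and at 52.2, 58.1 and 55.8 CPM in TKO. The Abi2 groups did not overlap, and it had an unadjusted p under 0.05, with a log2 fold change of 0.40 (SE 0.146; edgeR adjusted p = 0.673). Raph1, an actin regulator gene on the minus strand that starts 149.7 kb away, overlapped between the groups (log2 fold change 0.11, SE 0.156, edgeR adjusted p = 1). Downstream, Ctla4 starts 170.2 kb and Icos 261.1 kb from the Cd28 start.

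Closer to Cd28, 3 genes on its strand that are not annotated as protein coding had few reads, most of them in TKO, and are named because of these values. Gm11577, a transcribed pseudogene that starts 15.9 kb upstream, had 0, 0 and 5 counts in Ctrl and 10, 30 and 22 in TKO. The long non-coding RNA gene 2310016D23Rik, which starts 61.8 kb downstream of the Cd28 start and so past its end, had 0, 0 and 2 counts in Ctrl and 13, 14 and 12 in TKO. Its level in TKO was at least 4.13-fold higher when each Ctrl library was set at the 3-count floor. Gm37198, of unassigned gene type, starts 62.6 kb downstream within 2310016D23Rik on the same strand, so the pair is not separate in position. It had 0, 0 and 6 counts in Ctrl and 23, 30 and 7 in TKO. In each of the 3 genes the lowest TKO library was above the highest Ctrl library in CPM. Further neighbours with few reads, not annotated as protein coding, went either way. 6030460B20Rik, 363.7 kb upstream, had 1, 1 and 10 counts in Ctrl and 18, 12 and 19 in TKO, and Gm38388, 120.6 kb upstream, had 9 counts in TKO replicate 1 and none elsewhere. Conversely, Gm11581, a pseudogene 92.3 kb downstream on the same strand, had 8, 0 and 3 counts in Ctrl and 0, 2 and 0 in TKO, and Gm38137, 163.5 kb downstream, had 6 counts in Ctrl replicate 2 and none elsewhere. Eif4a-ps4, a transcribed pseudogene between Gm11577 and Cd28, 12.9 kb upstream of the Cd28 start, did not share this pattern, with 1043, 1452 and 899 counts in Ctrl and 1067, 1083 and 1629 in TKO (log2 fold change 0.10).

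**Figure D4:**
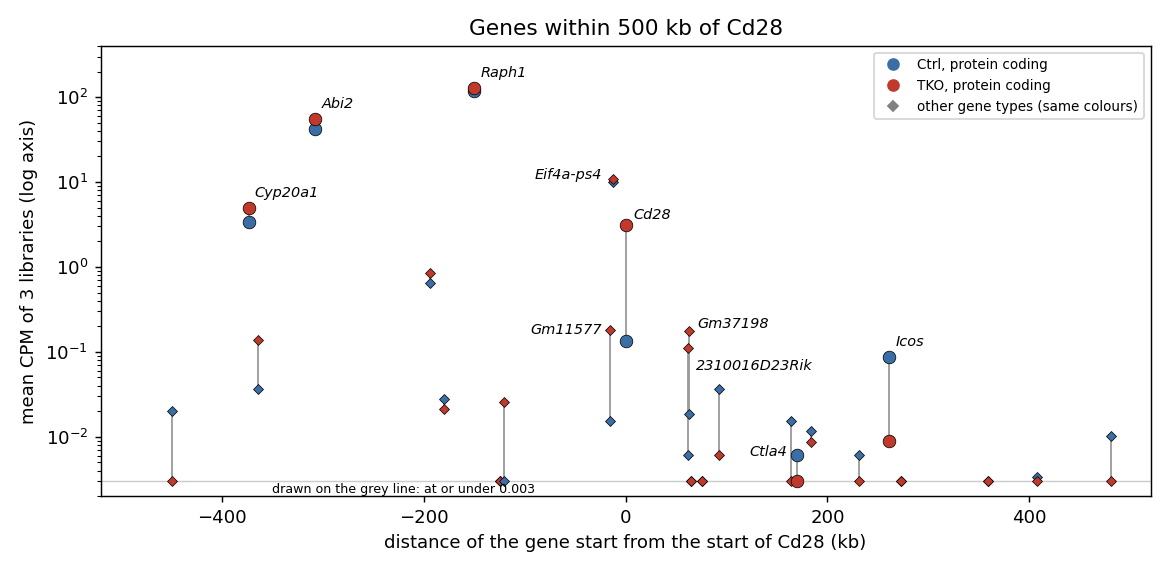
Mean level of each gene with a read within 500 kb of Cd28, in CPM on a logarithmic axis, against the distance of its start from the start of Cd28 in kb, with Ctrl in blue and TKO in red joined by a line; circles are protein-coding genes, diamonds other gene types, and levels at or under 0.003 CPM are drawn on the grey line. Cd28 and the low-count genes Gm11577, 2310016D23Rik and Gm37198, all labelled because of their values, are higher in TKO. Eif4a-ps4, which starts closer to Cd28 than these, differs little between the groups. Icos is lower in TKO and Ctla4 has almost no reads.

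The genes whose pattern over the 6 libraries was most like that of Cd28 were ranked by the root mean square distance between log2(CPM + 0.1) profiles, each centred on its own mean. Of 20621 tested genes the nearest were Gm42752 at a distance of 0.595, Gm46339 at 0.607, 4933402J15Rik at 0.622, Rps3a2 at 0.638 and H3f4 at 0.641, beside a median of 2.09. None of the 5 lies on chromosome 1. Rps3a2 is annotated as a processed pseudogene, whose reads may be shared with its parent gene, and H3f4 is a histone H3 gene. Cd80 was rank 387 at a distance of 1.61, Ptprc rank 4928 at 2, Cd86 rank 8280 at 2.06 and Icosl rank 16721 at 2.23. Among the tested genes of the 10, Cd80 had the profile nearest to Cd28 and Icosl the farthest.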

How the data were processed

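Total RNA of sorted basal cells was depleted of rRNA and sequenced paired-end, and per the authors' methods reads were trimmed with fastp and aligned with STAR. The authors deposited whole-number read counts for each Ensembl gene in each library, neither normalized nor pooled. The methods name GRCm39 and the submitters' processing notes GRCm38; the counting program, annotation and strand setting are not given in the sources used here. Symbols and positions were taken from GENCODE release 39 for mouse (GRCm39) by Ensembl identifier, which matched 51477 of 55536 genes and from 86.4% to 94.1% of the counts of each library.

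Groups were compared with edgeR 4.0.16 under R 4.3.3 (filterByExpr, min.count 10 and min.total.count 15, TMM, glmQLFit robust, glmQLFTest), leaving 20622 genes, with DESeq2 1.42.0 as an alternative. No 2 libraries were identical. Each library is labelled as a separate replicate, and p-values measure the spread between these 6 libraries. The biological coefficient of variation was 36.5%. On simulated counts with this design, edgeR recovered 61.6% of 190 genes changed by 2 on the log2 scale among 19830 tested. It also called 6 unchanged genes. DESeq2 recovered 137 of the changed genes and called 35 unchanged ones. The simulated counts held no pairing by replicate number. Deviations from the group means correlated by 0.14 to 0.193 between libraries with the same replicate number in the labels and by -0.184 to 0.019 otherwise. Deviations within a group sum to 0, so values above 0 for the same number bring the others below 0 on average. These correlations are not a test of pairing. In the replicate block the numbers were taken to pair the samples, although the labels do not say what a number stands for.

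The members, marker lists and pathway lists were chosen with earlier results of these data known. From each list, genes called and at most 4 others with the highest mean CPM were named, and near Cd28 every protein-coding gene within 500 kb; other genes named for their counts, the targeted genes and the CD3 sums were added after values were seen.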

Additional observations from a re-analysis of the deposited data

How the results depend on the processing

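The number of genes called was the value that moved most. Against 27 higher and 0 lower, 193 and 21 were called with DESeq2, 213 and 22 with no low-count filter, 44 and 1 with the replicate block, and 9 higher with at least 10 counts in every library; RLE size factors and sex as a factor gave 30 and 23 higher. Leaving out one library gave 7 to 65 higher and 0 to 16 lower: 8, 7 and 8 higher without Ctrl replicates 1, 2 and 3, and 15 and 65 without TKO replicates 2 and 3. With Cd28 left out, the replicate block changed no other call given in the report. DESeq2 called 1 macrophage marker (H2-Aa), 2 Merkel cell markers (Isl1 and Krt8) and 1 basal keratinocyte marker (Krt15) lower and 1 melanocyte marker (Mlana) higher. With no filter 1 melanocyte marker was called higher, and 2 Merkel cell markers (Krt8 and Atoh1) and 1 basal keratinocyte marker lower; the basal keratinocyte count was 0 to 1 when one library was left out. H2-Aa, Mlana, Isl1 and Atoh1 passed the filter through the group where they are high, so their calls support nothing. The causes were not tested.

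Log2 fold changes crossed 0 when one library was left out for several listed genes. These included the melanocyte marker Tyrp1 (-1.21, range -1.74 to 0.76) and the T cell marker Cd4 (-0.65, range -1.63 to 0.57). The fibroblast marker Lum (-0.42, range -0.84 to 0.26) was another. The log2 fold changes of the genes given next were near 0 or rested on TKO replicate 2. They ranged from -0.71 to 0.32 for Cd86, -0.70 to 0.62 for Ptprc, -0.00 to 0.88 for Cyp20a1, -0.18 to 0.06 for Pik3r1, -0.21 to 0.04 for Grb2, -0.01 to 0.14 for Bcl2l1, -0.27 to 0.05 for Lck, -0.61 to 0.62 for Fcer1g, -0.30 to 0.87 for Laptm5, -1.58 to 0.81 for Mrc1, -1.31 to 0.63 for Csf1r and -0.29 to 0.03 for Cpa3. With sex as a factor they were -0.05 for Ptprc, -0.06 for Fcer1g, -0.71 for Mrc1 and -0.49 for Csf1r. With the replicate block, pairing libraries by number, they were -0.07 for Fcer1g, -0.41 for Mrc1 and -0.42 for Csf1r, and Mrc1 was -0.02 with no filter. The T cell marker log2 ratio of -0.29 was -0.41 for the 11 CD3 and T cell receptor constant chain genes alone and -1.51 for the same genes without Trbc2, both alternatives chosen after seeing the data. Cd28 stayed between 3.91 and 6.08 when one library was left out. At these depths, counts up to 3 in a library cannot be told from 0 for Ctla4, Icos, Cd3e, Cd3g and Trdc.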

Other observations

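The genes of the MHC class II molecules through which antigen-presenting cells show peptides to T cells did not share a direction, and are given here because of their values. H2-Ab1 was at 1.92, 1.32 and 1.44 CPM in Ctrl, and in TKO at 1.12, 1.39 and 1.82 CPM, with overlapping groups. H2-Eb1 had 18, 0 and 8 counts in Ctrl and 279, 1024 and 47 in TKO. H2-Aa had 31, 29 and 11 counts in Ctrl and 0, 0 and 1 in TKO, in the opposite direction. H2-Eb1 and H2-Aa each passed the low-count filter through the group where it is high, so nothing is read from a test of them. Cd74, the gene of the class II invariant chain, was higher in TKO without overlap, at 1.78, 2.25 and 3.08 CPM against 1.55, 1.59 and 1.32 CPM in Ctrl. It was not called (log2 fold change 0.67, SE 0.342; edgeR adjusted p = 0.898). Groups without overlap and with TKO higher were found in 6.35% of all tested genes. H2-Aa and H2-Eb1 overlap on opposite strands of chromosome 17, so reads of the 2 genes may not be separable. The groups did not overlap for H2-Aa or H2-Eb1, beside 5.11% of all tested genes with TKO lower and 6.35% with TKO higher. TKO replicate 2 was highest for H2-Eb1, as for Cd28 and Cd80.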
